A study of Mus musculus with 2 samples.

Results

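The Hedgehog pathway core components are 9 genes, chosen by symbol: the ligand Shh, the receptor and ligand-binding proteins Ptch1, Boc and Hhip, the transducers Smo and Sufu, and the transcription factors Gli1, Gli2 and Gli3. All 9 of 9 were found among the 21896 gene symbols of both libraries. RNA of the ventricular and subventricular zones dissected from the cortex of C57/BL6 embryos at E13.5 was sequenced, as 1 Rcor2fl/fl library, called the control here, and 1 Rcor2cko library. Rcor2 encodes a co-repressor that works with the histone demethylase LSD1. Both groups carry floxed Rcor2 alleles and come from crosses of Rcor2fl/+NesCre mice. In Rcor2cko embryos, Cre recombinase driven by Nestin sequences, which are active in neural progenitors, deletes the floxed exons. Whether the Rcor2fl/fl embryos carried Cre, and how many embryos went into a library, is not given in the sources used here.

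In Hedgehog signalling, the secreted ligand binds Ptch1 on the receiving cell, helped by co-receptors such as Boc. Ligand binding lifts the block that Ptch1 places on the membrane protein Smo. Active Smo then frees the Gli transcription factors from Sufu, so that Gli2 and Gli3 are no longer processed into repressors. Gli1, Ptch1 and Hhip are themselves transcribed in response, and are therefore used as readouts of the pathway. In the embryonic forebrain the ligand comes from ventral tissue, while Gli3, largely as a repressor, is needed for the dorsal telencephalon to form. The comparison of the 2 libraries asks whether RNA of the pathway differed when Rcor2 was deleted.

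Levels are given in FPKM, fragment numbers corrected for transcript length and library size, which allows genes of different length to be compared. Changes are on the scale of log2(FPKM + 0.1), as the Rcor2cko value less the control value, and understate differences of genes with low FPKM. Low FPKM values fall on steps that each stand for 1 fragment, and fragments were recovered from them. The size of a step gives 18841705 fragments as the total used for scaling in the control and 25479846 in the Rcor2cko library. Exact 95% intervals of fragments stand beside the values and reflect only the error of counting. Because each genotype is a single library, no difference has a replicate check, and every test compares these 2 libraries and not the genotypes. Differences in the number of cells of a type and in RNA per cell cannot be told apart in such bulk samples.

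Rcor2 itself was at 90.6 FPKM in the control and 55.7 FPKM in the Rcor2cko library over the whole gene. All 8 markers of dorsal cortical progenitors were present in both libraries, and 5 of the 8 had lower values in the Rcor2cko library, of which Emx2 fell past 1.5-fold. Their summed levels were 702 and 840 FPKM, or 329.96 and 301.3 FPKM without Fabp7. RNA of neurons was also abundant in both libraries: 5 markers of cortical neurons summed to 1361 and 1302 FPKM. Of these markers, 2 had higher and 3 had lower values in the Rcor2cko library, none past 1.5-fold. Embryo sex differed between the libraries by its marker RNAs: Xist was at 177 and 0.109 FPKM, and 4 Y-linked genes were at 0 to 0.0239 FPKM in the control against 3.38 to 19.8 FPKM in the Rcor2cko library. The part of sex in the results cannot be told apart from that of genotype.

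The members spanned a wide range of levels. The co-receptor Boc, the transducers Smo and Sufu and the factors Gli3 and Gli2 lay between 7.80 and 17.9 FPKM in both libraries. The target genes Ptch1 and Gli1 lay between 0.781 and 2.56 FPKM. Hhip and the ligand Shh lay under 0.1 FPKM in both libraries. Of the 9 members, 7 reached 1 FPKM in at least 1 library, the minimum used for counting genes as changed, and Shh and Hhip did not.

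**Figure D1:**
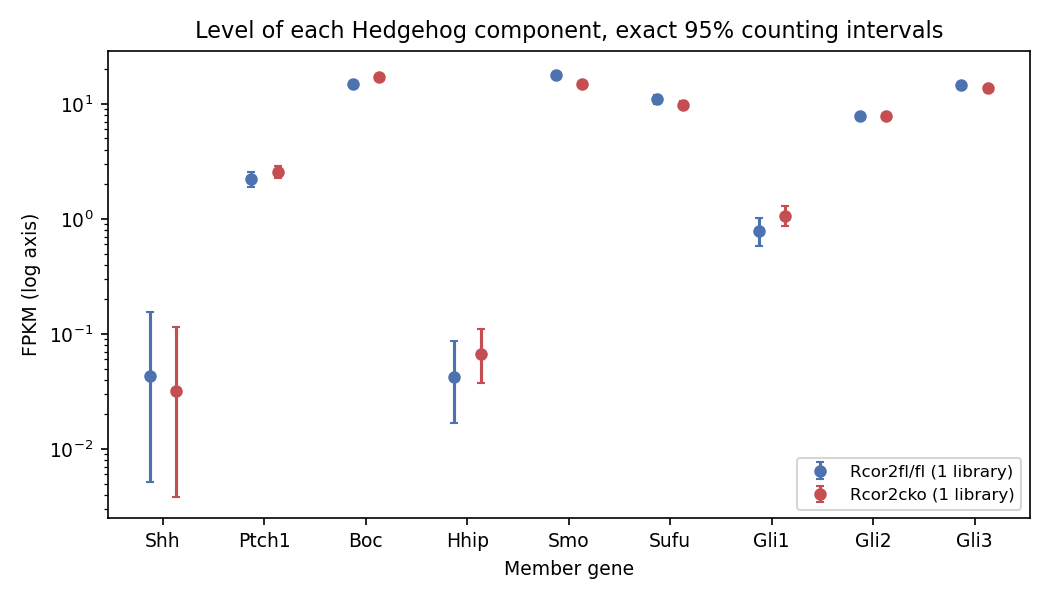
FPKM of each member gene (vertical log axis) in the control (blue) and the Rcor2cko library (red), with exact 95% counting intervals from recovered fragments as bars. Boc, Smo, Sufu, Gli2 and Gli3 lie at 7.80 to 17.9 FPKM, and Shh and Hhip lie under 0.1 FPKM with intervals that overlap between the libraries.

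None of the 9 members differed by more than 1.5-fold on (FPKM + 0.1), the fold change in the study's criterion. Without the pseudocount, Hhip, which rests on 7 and 15 fragments, came to a log2 change of 0.67, past this fold, and with the highest transcript row per gene Sufu did, at 0.74. Of the 11777 genes that reached 1 FPKM in either library, 3.79% passed this fold upwards in the Rcor2cko library and 1.76% downwards. Of the 9 members 4 had higher and 5 had lower values in the Rcor2cko library, and 57.6% of all genes counted had lower values. Their median log2 change was -0.01, beside -0.03 over all genes counted. Without Shh, which rests on 2 fragments per library, 4 members were higher and 4 lower, and the median of these 8 was 0.09.

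The counting test gave more detail. A two-sided exact binomial test was applied to the fragments of 12093 genes with 1 transcript, and p-values were adjusted over all of them by the Benjamini-Hochberg method. Of the 8 members in this test, Boc was called higher and Smo lower in the Rcor2cko library at an adjusted p under 0.05. Of all genes tested, 8.39% were called higher and 12.3% lower, so that 1 call in each direction among 8 genes is close to the background. These are 1015 and 1491 genes, and with totals that set the median ratio to 0 they were 1307 and 1017, while Boc and Smo kept their calls. Variation between embryos is not part of the error in this test.

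Shh is the secreted ligand. Positions are those of mm9, where Shh spans 28783355 to 28793641 of chromosome 5 on the minus strand, with 3 exons. It was at 0.0429 FPKM in the control and 0.0318 FPKM in the Rcor2cko library. Both values rest on 2 fragments, under the 3 fragments taken as the smallest level that can be told from 0, which are 0.0644 and 0.0477 FPKM for this transcript. No fold change is therefore given. The exact interval of the log2 ratio of fragments ran from -4.22 to 3.35. At this depth a difference in Shh within that range could not be shown. The upper bounds of its level were 0.155 FPKM in the control and 0.115 FPKM in the Rcor2cko library. The gene 9530036O11Rik overlaps Shh on the opposite strand and was listed at 0 in both libraries.

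The receptor Ptch1 and the co-receptor Boc both had higher values in the Rcor2cko library. Ptch1, on chromosome 13 from 63610261 to 63674474 on the minus strand, is a target of the pathway as well as its receptor. It was at 2.22 FPKM in the control and at 2.56 FPKM in the Rcor2cko library. The intervals, 1.90 to 2.58 FPKM and 2.27 to 2.89 FPKM, overlapped. The adjusted p of the exact test was 0.361.

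Boc, on chromosome 16 from 44485158 to 44559010 on the minus strand, encodes an immunoglobulin-family protein that binds the ligand together with Ptch1. It was at 14.9 FPKM in the control, from 1187 fragments, and at 17.1 FPKM in the Rcor2cko library, from 1841 fragments. The intervals, 14.0 to 15.8 FPKM and 16.3 to 17.9 FPKM, did not overlap. The log2 change was 0.20, with an exact interval of the fragment ratio from 0.09 to 0.30 and an adjusted p of 0.00195 in the exact binomial test. A change this size was not unusual between the libraries: 12.4% of the 11331 genes that reached 1 FPKM in both had a larger positive change.

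Hhip, on chromosome 8 from 82490014 to 82581905 on the minus strand, encodes a membrane protein that binds and sequesters the ligand and is induced by it. It was at 0.0418 FPKM from 7 fragments in the control and 0.0663 FPKM from 15 fragments in the Rcor2cko library. The exact interval of the log2 ratio, from -0.72 to 2.20, includes 0, and the adjusted p of the exact test was 0.667.

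The transducer Smo, which passes the signal from Ptch1 into the cell, was lower in the Rcor2cko library. Smo lies on chromosome 6 from 29685694 to 29711365 on the plus strand and has 12 exons. It went from 17.9 FPKM (1277 fragments) in the control, where it was the highest of the members, to 14.8 FPKM (1428 fragments) in the Rcor2cko library. The intervals, 16.9 to 18.9 FPKM and 14.1 to 15.6 FPKM, did not overlap. The log2 change was -0.27, with an exact interval of the fragment ratio from -0.38 to -0.16 and an adjusted p of 1.39e-05 in the exact binomial test. Of the same 11331 genes, 8.60% had a lower value of the change.

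Sufu, which holds the Gli proteins in the cytoplasm, lies on chromosome 19 from 46471386 to 46563294 on the plus strand. It was at 10.99 FPKM in the control and 9.77 FPKM in the Rcor2cko library. The intervals, 9.996 to 12.1 FPKM and 8.96 to 10.6 FPKM, overlapped. The interval of the log2 ratio of fragments ran from -0.36 to 0.01, and the unadjusted p of the exact test was 0.0616. Sufu was not part of the adjusted test because it is the only member with more than 1 transcript in the control. There it is the sum of a RefSeq transcript of 2356 nt, at 5.82 FPKM (deposited interval 4.25 to 7.38), and one of 2359 nt, at 5.17 FPKM (deposited interval 3.68 to 6.66). These levels did not differ beyond their intervals. For the Rcor2cko library the files give only the whole gene, so that the transcripts cannot be compared between the libraries.

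The Sufu transcripts thus differ by 3 nt in length. In the GENCODE vM1 annotation of mm9, the exon of Sufu that ends at position 46527805 of chromosome 19 starts either at 46527649, in 3 annotated transcripts, or at 46527652, in 2. Both starts follow an AG, the acceptor of a splice site, and the choice adds or leaves out 3 bases. The files do not say whether this is where their transcripts differ. The sequence around both acceptors is shown because only fragments that cover such a difference can tell the transcripts apart. It lies at chr19:46527619-46527681 of mm9 on the plus strand, and capitals mark the 3 bases between the acceptors.
Sufu acceptors: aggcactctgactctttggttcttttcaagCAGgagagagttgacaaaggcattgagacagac

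Of the transcription factors, Gli3 and Gli2 made up most of the Gli RNA in both libraries. Gli3, on chromosome 13 from 15555068 to 15821859 on the plus strand, was at 14.7 FPKM (2273 fragments) in the control and 13.7 FPKM (2867 fragments) in the Rcor2cko library. Its log2 change was -0.10, with an interval from -0.18 to -0.02 and an adjusted p of 0.0616 in the exact binomial test. With totals that set the median ratio to 0, the change was -0.06, the interval ran from -0.14 to 0.02 and the adjusted p was 0.405. Gli2, the main activator downstream of Smo, lies on chromosome 1 from 120730709 to 120950196 on the minus strand. It was at 7.88 FPKM (967 fragments) and 7.80 FPKM (1293 fragments), so that its log2 change was -0.01, within an exact interval of -0.14 to 0.11. The sign of this change turned positive when the libraries were rescaled to each other, at most to 0.02. With totals that set the median ratio to 0, the log2 ratio of Gli2 fragments was 0.03.

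Gli1, on chromosome 10 from 126766945 to 126778645 on the minus strand, is both a Gli activator and a target gene. It was at 0.781 FPKM (51 fragments) in the control and 1.07 FPKM (94 fragments) in the Rcor2cko library. The log2 change of (FPKM + 0.1), 0.41, was the largest among the members, although that of Hhip was larger with a pseudocount of 0.01 or none. Its interval ran from -0.06 to 0.97, and the adjusted p of the exact test was 0.230. Arhgap9 overlaps Gli1 on the opposite strand and was at 0.230 and 0.195 FPKM. Whether strand was used in counting is not given in the sources used here.

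**Figure D2:**
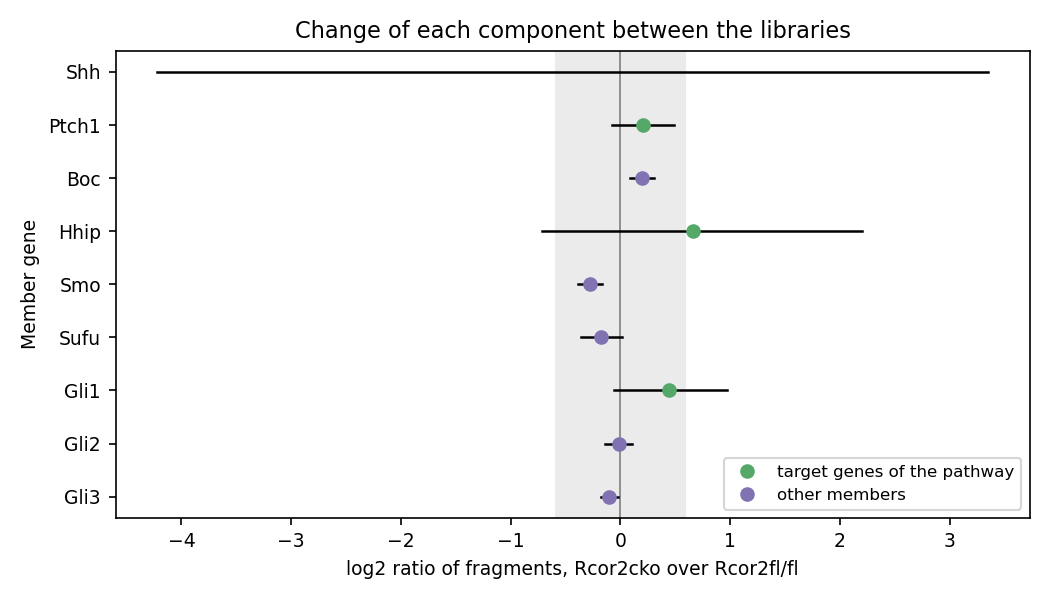
Log2 ratio of recovered fragments, Rcor2cko over Rcor2fl/fl (horizontal axis), for each member gene, with exact 95% intervals as lines and the range within 1.5-fold shaded. Green points are target genes and violet points other members. Shh has no point because it rests on 2 fragments per library. The intervals of Boc, Smo and Gli3 lie on one side of 0, and that of Gli3 included 0 with totals that set the median ratio to 0.

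Together the Gli genes summed to 23.3 FPKM in the control and 22.5 FPKM in the Rcor2cko library. Gli3 took 62.9% and 60.7% of the sum, Gli2 33.8% and 34.6%, and Gli1 3.35% and 4.73%. Ratios within a library do not depend on how the libraries were scaled to each other. The level of Gli1 was 5.33% of that of Gli3 in the control and 7.79% in the Rcor2cko library, with an exact interval of the log2 ratio of these ratios from 0.03 to 1.08. The level of Gli2 was 53.8% and 57.0% of that of Gli3, with an interval from -0.06 to 0.23. Both pairs were chosen after their values were seen.

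The target genes were also set against the summed FPKM of Smo, Sufu, Boc, Gli2 and Gli3 in the same library. Ptch1 came to 3.35% of this sum in the control and 4.06% in the Rcor2cko library. The log2 ratio of these shares was 0.28, with an exact interval from -0.01 to 0.55. Gli1 came to 1.18% and 1.69%, and the log2 ratio was 0.52, with an interval from 0.0026 to 1.03. Hhip came to 0.0631% and 0.105%, with an interval from -0.65 to 2.26. The values of all of the target genes were thus higher in the Rcor2cko library relative to the sum. Only the interval of Gli1 lay above 0, with a lower bound of 0.0026. These intervals were computed from fragments and leave out the counting error of the sum, so that this bound cannot be told from 0. The adjusted p of Gli1 in the exact test between the libraries was 0.230.

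In the order of levels, Boc and Smo changed places. In the control the order was Smo, Boc, Gli3, Sufu, Gli2, Ptch1, Gli1, Shh and Hhip. In the Rcor2cko library it was Boc, Smo, Gli3, Sufu, Gli2, Ptch1, Gli1, Hhip and Shh. Boc and Gli3 had overlapping intervals in the control, and Smo and Gli3 in the Rcor2cko library. Shh and Hhip overlapped in both. The other neighbours in each order did not overlap. The level of Boc was 83.1% of that of Smo in the control and 115% in the Rcor2cko library, and the log2 ratio of these values was 0.47 (exact interval 0.32 to 0.63). This pair was chosen after its values were seen.

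**Figure D3:**
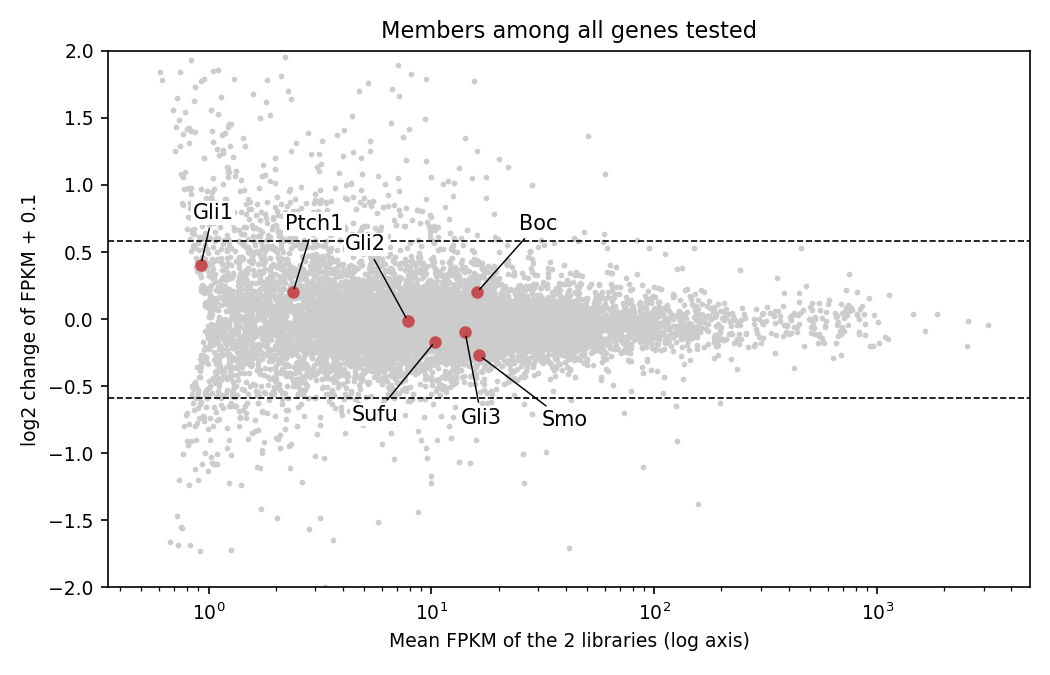
Log2 change of (FPKM + 0.1), Rcor2cko over Rcor2fl/fl (vertical axis), against the mean FPKM of the 2 libraries (horizontal log axis). Grey points are the 11777 genes that reached 1 FPKM in either library, of which 52 beyond a change of 2 are not shown; red points are the 7 members among them. The dashed lines mark 1.5-fold, and all 7 members lie between them.

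Another 57 genes of the pathway were described by role, and 46 of them reached 1 FPKM in either library. Of these 46, only Olig2 was more than 1.5-fold higher and none was more than 1.5-fold lower, beside the 3.79% and 1.76% of all genes. The values of 11 were higher and of 35 lower, with a median log2 change of -0.09. When the libraries were rescaled to each other, 14 or 15 were higher and 31 or 32 lower. Of all 11777 genes counted, 4992 had higher and 6785 lower values, with a median log2 change of -0.03. After the same rescalings, 5517 to 5946 of them were higher and 5830 to 6232 lower. By the exact test, 4 of the 39 genes at this level with fragments recovered were called higher and 14 lower, or 5 and 12 with totals that set the median ratio to 0. Among all 8460 genes with at least 1 FPKM in this test, 10.2% were called higher and 16.9% lower, which are 859 and 1433 genes, or 1138 and 965 with the other totals.

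The other ligands, Ihh and Dhh, rest on few fragments. For Ihh the control had 0.0708 FPKM from 3 fragments, and the Rcor2cko library had 0.105 FPKM from 6. For Dhh the control had 0.0733 FPKM and the Rcor2cko library 0.0544 FPKM, each from 3 fragments. The exact interval of the log2 ratio ran from -1.66 to 3.19 for Ihh and from -3.34 to 2.46 for Dhh. Both intervals include 0, so that no direction can be read for these ligands. Among genes for making and releasing the ligand, Scube1, a secreted protein of the family that helps release the ligand, went from 8.09 to 10.6 FPKM. Its log2 change of 0.39 had an adjusted p of 4.04e-12 in the exact binomial test. Disp1, which releases the ligand from the producing cell, was at 2.12 and 2.67 FPKM with an adjusted p of 0.0546, or 0.0249 with totals that set the median ratio to 0. Scube3 had the lowest change of this group among the genes at 1 FPKM, at 4.30 and 4.29 FPKM.

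The co-receptors Cdon and Gas1, which act beside Boc, were lower in the Rcor2cko library while Boc was higher. Cdon went from 45.7 to 37.2 FPKM (log2 change -0.30, adjusted p 6.43e-29) in the exact binomial test. Gas1 went from 25.6 to 21.98 FPKM (log2 change -0.22, adjusted p 0.000291). Gpc3, a glypican that competes for the ligand, had the highest change of the group, at 3.20 and 4.08 FPKM with an adjusted p of 0.122.

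All 11 genes of signal transduction around Smo and the Gli proteins had lower values in the Rcor2cko library, or 10 of 11 under median, upper-quartile or quantile scaling. Their median log2 change was -0.16. None passed 1.5-fold, and 4 of the 11 were called lower by the exact test, or 3 with totals that set the median ratio to 0. Over all 11777 genes counted, 57.6% had lower values, which are 6785 genes, or 5830 to 6232 under the other scalings. Of the 8460 genes at this level in the test, 16.9% were called lower, 1433 genes, or 965 with the other totals. Stk36, a serine/threonine kinase, had the lowest change, from 9.90 to 6.71 FPKM (log2 change -0.55, adjusted p 6.50e-15). Evc2, a ciliary partner of Smo, went from 3.56 to 2.70 FPKM (log2 change -0.39, adjusted p 0.00933). Iqce, at 6.78 and 6.64 FPKM, had the highest change of the group.

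The kinases and ubiquitin ligase components that modify Gli proteins had a median log2 change of -0.04 over 10 genes. Of these, 3 had higher and 7 lower values, or 5 and 5 under each other scaling. Of all 11777 genes counted, 6785 had lower values, or 5830 to 6232 under the other scalings. Prkaca, a catalytic subunit of protein kinase A, had the lowest change, -0.25, from 33.4 to 27.95 FPKM. Btrc, which targets Gli proteins for processing, had the highest, 0.15, from 9.49 to 10.5 FPKM. Of 14 genes of the cilium and its transport, in which Smo and the Gli proteins are active, 11 had lower values (10 under quantile normalization), with a median of -0.11, and 4 of the 11 with fragments recovered were called lower, beside the 57.6% and 16.9% of all genes. Tulp3, which carries receptors into the cilium, had the lowest change, -0.40, from 8.70 to 6.57 FPKM with an adjusted p of 7.05e-05 in the exact binomial test. Ift122 had the highest, 0.16, from 6.83 to 7.65 FPKM.

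**Figure D4:**
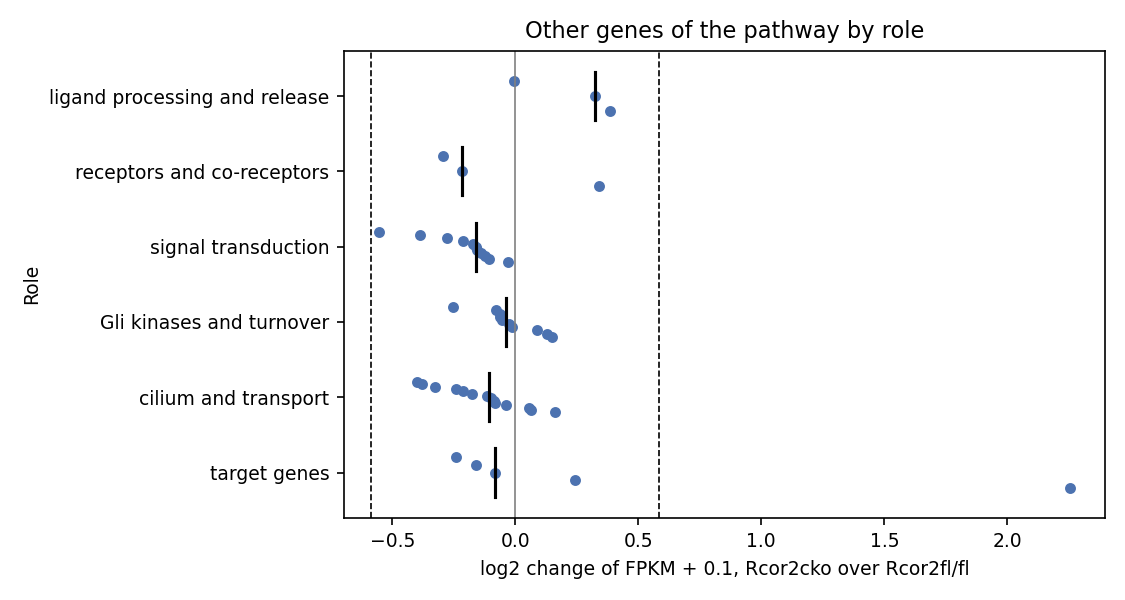
Log2 change of (FPKM + 0.1), Rcor2cko over Rcor2fl/fl (horizontal axis), of the 46 other pathway genes that reached 1 FPKM in either library, by role; black bars are medians and dashed lines mark 1.5-fold. Olig2, among the target genes, is the 1 point past a dashed line, and all 11 points of signal transduction lie below 0, of which 1 lay above it under median, upper-quartile or quantile scaling.

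Of 10 further genes that Hedgehog signalling is known to raise in the neural tube, brain or other tissues, 5 reached 1 FPKM. Olig2, a transcription factor of ventral progenitors, went from 0.189 FPKM (8 fragments) to 1.28 FPKM (log2 change 2.26, adjusted p 6.28e-09) in the exact binomial test. Ccnd1, which drives entry into the cell cycle, was higher, at 10.7 and 12.7 FPKM (log2 change 0.24, adjusted p 0.00302). Ccnd2 and Mycn, which also act in the cell cycle, were lower, with log2 changes of -0.16 and -0.24 and adjusted p of 2.24e-15 and 2.89e-06. Mycn had the lowest change of these 5 genes. Foxf1a was at 0.122 FPKM from 2 fragments in the control and listed at 0 in the Rcor2cko library. Foxa2 and Nkx6-1 were listed at 0 in both libraries, and Nkx2-1 was at 0.128 and 0.190 FPKM.

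Markers of the ventral telencephalon and of other tissues were also compared between the libraries. All 9 genes listed for the lateral ganglionic eminence were more than 1.5-fold higher, beside 3.79% of all genes counted. Their summed level went from 10.97 to 42.9 FPKM. Among them Gsx2, Isl1 and Six3 were listed at 0 in the control, and Ebf1, Zfp503 and Dlx6 were under 1 FPKM there. These genes thus passed the minimum of 1 FPKM only through the Rcor2cko library. The list was chosen with earlier results of these data known. Much of the sum was Dlx1 (4.87 and 13.9 FPKM), Dlx2 (2.96 and 11.2 FPKM) and Dlx5 (2.25 and 6.60 FPKM). The paper names Dlx2, Dlx5 and Dlx6 as ventral marker genes, so that this sum is not particular to the lateral part. It also reports Rcor2 binding at the Dlx2 and Dlx5 promoters, and raised Dlx2 protein in the Rcor2cko neocortex. Whether these RNAs came from cortical cells or from ventral tissue in the sample cannot be told apart here. The 4 genes of the medial ganglionic eminence, from where Shh is secreted, summed to 10.63 and 11.025 FPKM, nearly all of it Lhx6 at 10.4 and 10.7 FPKM. Lhx8 was listed at 0 in the control and rests on 1 fragment in the Rcor2cko library. The 7 choroid plexus genes summed to 1.04 and 62.9 FPKM, or 1.04 and 5.12 FPKM without Ttr. Ttr and Kl were listed at 0 in the control, and Kl rests on 1 fragment in the Rcor2cko library. All 10 genes of endothelium and pericytes had higher values, none past 1.5-fold, and summed to 42.1 and 49.3 FPKM. The 4 microglia genes all had higher values, or 3 of the 4 under quantile normalization, and summed to 8.10 and 12.2 FPKM. Of these genes 2, Csf1r and C1qa, were more than 1.5-fold higher, beside the same 3.79% of all genes. The 5 meningeal genes summed to 1.12 and 0.912 FPKM, or 0.584 and 0.813 FPKM without Dcn, and 3 of the 5 had higher values. Lum was listed at 0 in the control and rests on 2 fragments in the Rcor2cko library. The part of these tissues in the values of Ptch1, Gli1, Hhip, Boc and Olig2 was not tested.

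The motif GACCACCCA, a Gli binding sequence, was searched on both strands, as itself and as TGGGTGGTC, in RefSeq promoter windows of 300 bases on GRCm38.p6. Windows were matched for 6 members, Ptch1, Hhip, Smo, Sufu, Gli2 and Gli3, and Shh, Boc and Gli1 were not analysed here. No window of these 6 members held these letters, beside 0.253% of all 32851 windows. Windows were also matched for 43 of the 57 other pathway genes, and none held the motif. With a share of 0.253%, so few windows were unlikely to hold it in any case, so that its absence decides nothing about these genes.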

How the data were processed

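RNA of 1 Rcor2fl/fl and 1 Rcor2cko library was analysed. The authors deposited FPKM values with 95% bounds, per RefSeq transcript (27641 rows) for Rcor2fl/fl and per gene (21896 rows) for Rcor2cko, from reads mapped to mm9. The submitters' processing notes name TopHat 1.3.3 and Cufflinks 1.2.0, and the paper's methods a later TopHat release.

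Transcript rows were summed per gene. Genes that reached 1 FPKM in either library were counted as changed above 1.5-fold on (FPKM + 0.1), with no further scaling. For 14350 genes with a single transcript no shorter than 1000 nt, fragments were recovered as FPKM times (length less a fitted offset of 194 or 201 nt) over the value of 1 fragment. Of values up to 100 fragments, 99.3% and 99.4% came within 0.1 of a whole number. For Sufu the transcripts' estimates were summed, and both sums fell within 0.1 of a whole number. Genes with at least 1 fragment entered a two-sided exact binomial test with Benjamini-Hochberg adjustment, and intervals are Clopper-Pearson or, for levels, exact Poisson. Intervals of ratios between members were Clopper-Pearson, or conditional exact for pairs. The steps were tested on simulated data. Positions are from GENCODE vM1 (NCBIM37, mm9), and all 9 members overlapped the files' loci. Python 3.11.15, numpy 2.4.6, pandas 2.3.3, scipy 1.17.1 and matplotlib 3.10.9 were used.

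The members, gene lists and tests were chosen with earlier results of these data known. Named genes are all members, every pathway gene past 1.5-fold, and the highest and lowest change of each role; the other genes named were chosen after their values were seen. No protein sequence was used here.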

Additional observations from a re-analysis of the deposited data

How the results depend on the processing

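The pathway counts and the counts over all genes were recomputed under 12 alternatives, and the changes of the 9 members under the 8 of these that could alter them. Every member stayed within its counting interval under each pseudocount and scaling. A pseudocount cannot turn a direction. Of the members, only Gli2 turned under the scalings, between -0.01 and 0.02. The scalings moved most changes little, so that only a change near 0 was likely to turn. The direction of Shh, with 2 fragments in each library, cannot be read. Hhip ran from 0.03 with a pseudocount of 1 to 0.67 without one, past 1.5-fold. With the highest row per gene, Sufu came to 0.74, past 1.5-fold, and the median of the members to 0.20, because that setting takes 1 of the Sufu transcripts in the Rcor2fl/fl library only. It gave 1214 genes higher, and 2 pathway genes, Wdr35 and Olig2. Genes higher and lower were 243 and 100 with a pseudocount of 1, 1287 and 672 without a filter, 262 and 128 with 1 FPKM in both libraries, 162 and 62 above 2-fold, and 220 and 81 with non-overlapping FPKM intervals. Without a filter, 2 pathway genes were higher, Scube2 and Olig2, and 1 lower, Foxf1a; with 1 FPKM in both libraries, 0 were higher. The cause was not tested. With totals that set the median ratio to 0, chosen after seeing the data, the exact test still called Boc and Smo and no other member (adjusted p 9.42e-05 and 0.000421). No paired analysis was possible because each genotype has a single library. Depth limits Shh and Hhip most.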
